A study of Homo sapiens with 9 samples.

Results

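The cholesterol and fatty acid synthesis genes examined here are 35 genes of 56809 in the count table, taken by symbol from a list of sterol enzymes, their transcriptional regulators, sterol transporters and fatty acid enzymes. They comprise 7 enzymes of the mevalonate and isoprenoid steps (ACAT2, HMGCS1, MVK, PMVK, MVD, IDI1, FDPS), 11 enzymes from squalene on (FDFT1, SQLE, LSS, CYP51A1, TM7SF2, MSMO1, NSDHL, HSD17B7, EBP, SC5D, DHCR7) and 4 regulators (SREBF1, SREBF2, SCAP, INSIG1). Sterol transport is represented by 3 genes (STARD4, NPC1, ABCA1) and fatty acid synthesis, desaturation, elongation and activation by 10 (ACLY, ACACA, FASN, ME1, SCD, ELOVL6, FADS1, FADS2, ACSL1, ACSL3). All 35 passed the filter on low counts and were tested. ABCA1 was the least expressed of them, and its passing the filter depended on the libraries in which it was highest.

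Cells make cholesterol from acetyl-CoA through mevalonate, isoprenoids and squalene, and make fatty acids from the same precursor through malonyl-CoA. The transcription factors encoded by SREBF1 and SREBF2 are held in the endoplasmic reticulum by SCAP and INSIG proteins when sterols are plentiful, and are carried to the Golgi, cut and released to the nucleus when sterols run low. There they bind sterol regulatory elements, commonly beside an NF-Y box, in the promoters of genes of both branches. New saturated fatty acids are elongated by ELOVL6 and desaturated by SCD. FADS2 and FADS1 act on polyunsaturated acids, in a series that starts from linoleic and alpha-linolenic acid.

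Bulk RNA of the MDA-MB-468 line, which derives from a human breast adenocarcinoma, was sequenced in 3 groups of 3 libraries. The control group carried the empty lentiviral hairpin vector pSicoR, and the other groups carried the hairpin shLMO2-1 or the hairpin shLMO2-2, both named for LMO2, a LIM-domain cofactor of transcription. All 9 libraries are of this line and all received a vector. The labels do not say whether infected cells were kept as pools or clones, or whether the 3 libraries of a group came from separate cultures, so p-values measure the spread between these libraries, which may be technical. In bulk RNA, fewer expressing cells and less RNA per cell cannot be told apart.

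Library totals lay between 15494486 and 23069456 estimated counts, of which the 35 genes took between 1.23% and 1.30%. The epithelial markers EPCAM, KRT8, KRT18, KRT19, CDH1 and EGFR were at 282 CPM or more in every library (CPM, counts scaled to a common library total by TMM). Of the markers of other cell types, the leukocyte gene CD3E and the fibroblast gene COL3A1 were at 0 in all 9, while the leukocyte gene PTPRC had 1 to 8 counts and the endothelial genes PECAM1 and CDH5 4 to 18 and 15 to 45 counts a library, and the fibroblast gene COL1A1 reached 17.1 CPM. The progesterone receptor gene PGR was at 0, and the estrogen receptor gene ESR1 lay between 2.47 and 6.10 CPM. LMO2 itself was near the limit of detection, with 4, 35 and 19 counts in the control libraries, 2, 1 and 6 with shLMO2-1, and 1, 4 and 3 with shLMO2-2. Control replicate 1 thus lay within the range of the shLMO2-1 libraries. LMO2 passed the test with shLMO2-2 (log2 fold change -3.02, adjusted p = 0.0441, edgeR, lost in 9 of 18 alternatives). With shLMO2-1 it did not pass (-2.44, adjusted p = 0.0907). In 3 of 18 alternatives edgeR called it there, among them without control replicate 1 (-2.90, adjusted p = 0.0268). In the mean of both hairpins it was called (-2.73, adjusted p = 0.0216, edgeR, lost in 4 of 17 alternatives). Control replicate 1 also stood apart over all genes, at -42.6 on the first principal component against -18.2 and -20.6 for the other controls. The numbers of members called against control are therefore given below with and without it.

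The promoters of the 6 members that passed a test are shown first, because SREBP factors act through short elements close to the start of transcription. Each runs 5′ to 3′ from 250 bases before to 50 bases after a RefSeq start (GRCh38.p14), and capitals mark matches, on either strand, to the classical sterol regulatory element TCACNCCAC or to the NF-Y box CCAAT.
SREBF2 (chr22:41832855-41833154, plus strand): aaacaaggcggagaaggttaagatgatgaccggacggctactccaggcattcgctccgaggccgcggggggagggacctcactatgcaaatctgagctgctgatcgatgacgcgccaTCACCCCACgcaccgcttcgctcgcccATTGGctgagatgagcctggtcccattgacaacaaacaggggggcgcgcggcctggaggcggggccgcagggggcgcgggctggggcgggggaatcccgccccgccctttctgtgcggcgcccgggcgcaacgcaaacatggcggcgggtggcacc
TM7SF2 (chr11:65111622-65111921, plus strand): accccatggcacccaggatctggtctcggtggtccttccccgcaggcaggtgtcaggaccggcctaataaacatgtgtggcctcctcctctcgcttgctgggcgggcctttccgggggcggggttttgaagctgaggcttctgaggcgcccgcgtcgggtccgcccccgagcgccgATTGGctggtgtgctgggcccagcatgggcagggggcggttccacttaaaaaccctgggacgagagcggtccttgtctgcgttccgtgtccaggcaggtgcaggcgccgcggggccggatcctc
FADS2 (chr11:61816154-61816453, plus strand): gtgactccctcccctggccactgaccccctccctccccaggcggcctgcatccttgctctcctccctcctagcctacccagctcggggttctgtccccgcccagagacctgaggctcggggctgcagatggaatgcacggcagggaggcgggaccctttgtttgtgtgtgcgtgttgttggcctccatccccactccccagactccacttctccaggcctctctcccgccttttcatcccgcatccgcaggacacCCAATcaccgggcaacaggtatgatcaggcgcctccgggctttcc
FADS1 (chr11:61816954-61817253, minus strand): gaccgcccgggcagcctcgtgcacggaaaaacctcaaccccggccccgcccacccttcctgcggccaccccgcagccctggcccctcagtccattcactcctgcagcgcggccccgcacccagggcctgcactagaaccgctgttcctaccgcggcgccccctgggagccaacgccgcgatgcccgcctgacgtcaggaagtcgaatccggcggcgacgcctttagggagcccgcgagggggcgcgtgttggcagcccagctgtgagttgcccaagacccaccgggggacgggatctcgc
ELOVL6 (chr4:110198566-110198865, minus strand): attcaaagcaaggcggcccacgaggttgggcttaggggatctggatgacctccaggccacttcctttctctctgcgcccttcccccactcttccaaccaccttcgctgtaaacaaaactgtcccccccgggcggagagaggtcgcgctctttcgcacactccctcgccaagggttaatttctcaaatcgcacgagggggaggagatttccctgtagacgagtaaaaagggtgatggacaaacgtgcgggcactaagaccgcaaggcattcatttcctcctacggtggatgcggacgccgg
ME1 (chr6:83431002-83431301, minus strand): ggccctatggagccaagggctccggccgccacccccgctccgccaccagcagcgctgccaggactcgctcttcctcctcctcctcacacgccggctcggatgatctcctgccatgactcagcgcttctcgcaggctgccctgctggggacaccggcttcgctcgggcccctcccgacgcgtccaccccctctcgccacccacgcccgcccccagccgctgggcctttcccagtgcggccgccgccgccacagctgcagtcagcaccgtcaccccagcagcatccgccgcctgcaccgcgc
The SREBF2 promoter holds both elements without overlap, the sterol element at positions -133 to -125 from the start and the NF-Y box, read on the other strand, at -106 to -102. TM7SF2 has an NF-Y box at -74 to -70, and the FADS2 window shown has one at 5 to 9, while the window of its other RefSeq start has none. No such letters were found in the windows of FADS1, ELOVL6 and ME1. RefSeq windows were found for 31 of the 35 genes, 44 windows in all. The sterol element was present in 2 of them (SREBF2 and ACSL1), or 4.55%, against 1.13% of 35116 RefSeq promoter windows. The NF-Y box was present in 26 of the 44, or 59.1%, against 34.6% of all windows. A match describes the sequence and is not a measured binding site.

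Relative to the length of the longest coding transcript, the members differed widely in level in the control cells. FDPS, which makes farnesyl diphosphate, was highest at 1135 ± 116 CPM per kb (SD, n = 3), followed by DHCR7, the last enzyme of cholesterol synthesis, at 385 ± 43.9 and SCD, the stearoyl-CoA desaturase, at 323 ± 6.23 CPM per kb. The genes that changed most lay at the other end of this scale. FADS2, the delta-6 desaturase, stood at 11.8 ± 0.903, FADS1, the delta-5 desaturase, at 4.71 ± 0.309 and ELOVL6, an elongase of saturated and monounsaturated acids, at 0.981 ± 0.0266 CPM per kb. Only ABCA1, the cholesterol exporter, was lower, at 0.0399 ± 0.0176 CPM per kb, or 4 to 15 counts a library. These levels depend on the transcript chosen. By the median length of a gene's coding transcripts, FADS2 stood at 25.3, FADS1 at 12.4 and ABCA1 at 0.272 CPM per kb, while the 3 highest and 2 lowest genes kept their ranks.

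**Figure D1:**
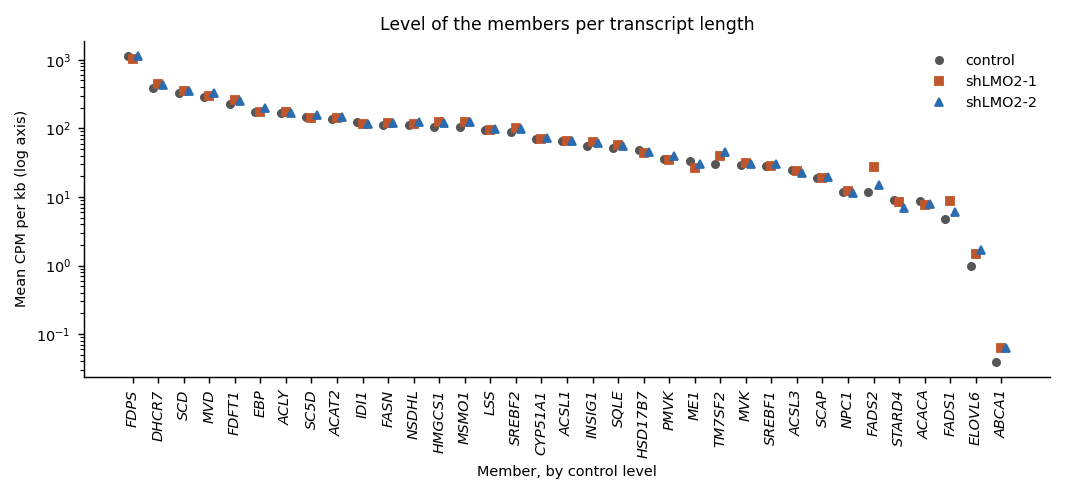
Mean level of each of the 35 genes in CPM per kb of its longest coding transcript (log axis), for control, shLMO2-1 and shLMO2-2 libraries (n = 3 each), ordered by the control level. The symbols of the 3 groups lie on each other for most genes. They separate for FADS2, FADS1 and ELOVL6 near the low end and for TM7SF2 at a higher level. For ABCA1, the lowest gene, the control symbol lies below those of both hairpins.

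With shLMO2-1, 5 of the 35 genes passed the test against control: FADS2, FADS1, ELOVL6 and SREBF2 rose and ME1 fell. Of the 14709 genes tested in that comparison, 8.42% were called, 4.54% higher and 3.88% lower. With shLMO2-2, 4 members were called higher (ELOVL6, TM7SF2, FADS2 and FADS1) and none lower, against 8.97% of all genes called, 4.94% higher and 4.04% lower. In the mean of both hairpins against control, 5 members rose and ME1 fell, against 12.4% of all genes called, 6.47% higher and 5.93% lower. FADS1, FADS2 and ELOVL6 were called higher with each hairpin, in comparisons that share the 3 control libraries, and no member was called lower with both. With shLMO2-2, where none was called lower, 3 members were lower at an unadjusted p under 0.05, and neither limma-voom nor DESeq2 called any of them. The remaining 29 members were called in none of the comparisons.

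The share of members called was 14.3%, 11.4% and 17.1% in those 3 comparisons, which is a difference of few genes from the background shares. Of the 6 called members, 3 desaturate or elongate fatty acids. The median log2 fold change of the 35 genes was 0.04 with shLMO2-1, 0.10 with shLMO2-2 and 0.10 in the mean of both, where the median of all tested genes lay within 0.01 of 0. Without control replicate 1 these medians were 0.03, 0.07 and 0.06. With shLMO2-1 the median was 0.10 without control replicate 2 and 0.07 without replicate 1 or replicate 2 of shLMO2-1, and in the mean of both it was 0.06 without shLMO2-1 replicate 3. Without control replicate 1, the numbers called were 6, 3 and 7, against 9.33%, 7.55% and 10.6% of all genes tested. FADS1 was then no longer called with shLMO2-2, and HMGCS1 was called with shLMO2-1 and in the mean of both. Without control replicate 3, and without shLMO2-2 replicate 3, 2 members were called with shLMO2-2, where 4.26% and 3.43% of all genes were called.

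**Figure D2:**
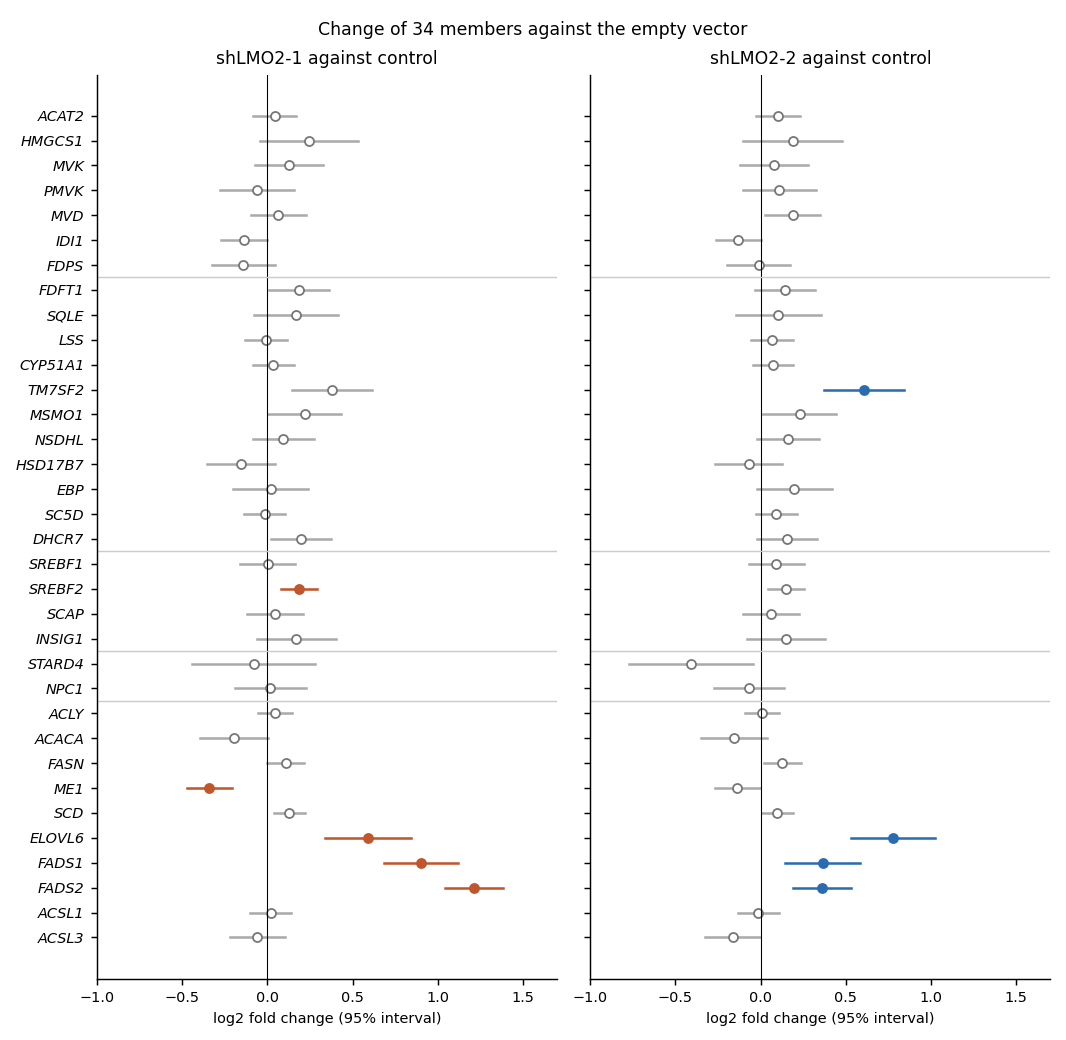
Log2 fold change of 34 members against control with the 95% interval of the edgeR fit, for shLMO2-1 (left) and shLMO2-2 (right), in pathway order with lines between groups of genes; filled points passed the test. ABCA1 is left out because its interval is wider than the axis; the calls sit at FADS1, FADS2 and ELOVL6 in both panels, at SREBF2 and ME1 on the left and at TM7SF2 on the right.

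The desaturases FADS2 and FADS1 had the largest changes of the members with shLMO2-1, and ELOVL6 and TM7SF2 the largest called changes with shLMO2-2. FADS2, which catalyses the first desaturation of linoleic and alpha-linolenic acid, was at 39.6, 46.1 and 42.3 CPM in the control libraries, at 94.3, 98.7 and 104 CPM with shLMO2-1 and at 52.4, 53.8 and 58.4 CPM with shLMO2-2. All hairpin libraries lay above all controls, and the shLMO2-1 libraries lay above all shLMO2-2 libraries. FADS2 rose 2.31-fold with shLMO2-1 (log2 1.21, SE 0.08, adjusted p = 2.86e-05, edgeR) and 1.28-fold with shLMO2-2 (log2 0.36, SE 0.08, adjusted p = 0.0176). The change with shLMO2-2 missed the threshold when control replicate 3 was left out (adjusted p = 0.0635), and likewise for replicates 2 (0.0592) and 3 (0.0794) of shLMO2-2.

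FADS1, which acts later in the same series of reactions, was at 20.2, 20.8 and 22.9 CPM in the control libraries, at 39.3, 40.7 and 39.4 CPM with shLMO2-1 and at 27.3, 24.2 and 30.8 CPM with shLMO2-2. The 3 groups again did not overlap and stood in the same order as for FADS2. FADS1 rose 1.87-fold with shLMO2-1 (log2 0.90, SE 0.10, adjusted p = 0.000443, edgeR) and 1.29-fold with shLMO2-2 (log2 0.36, SE 0.10, adjusted p = 0.0449). The call with shLMO2-2 was lost in 11 of 18 alternatives (adjusted p 0.0185 to 0.173 over them), among them leaving out any control library, any shLMO2-1 library, shLMO2-2 replicate 1 or shLMO2-2 replicate 3.

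The difference between the hairpins was tested directly. In shLMO2-2 against shLMO2-1, 2 of the 35 members passed, FADS2 (log2 -0.85, SE 0.08, adjusted p = 0.00039, edgeR) and FADS1 (-0.54, SE 0.10, adjusted p = 0.0334), both lower with shLMO2-2. In this comparison 0.768% of all genes were called, 0.347% higher and 0.422% lower. FADS2 remained called in all 18 alternatives. The call of FADS1 was lost in 6 of them, each of which left 1 member called: omission of control replicate 3 (adjusted p = 0.052), of shLMO2-1 replicates 1 (0.126), 2 (0.167) or 3 (0.0825), and of shLMO2-2 replicates 1 (0.119) or 2 (0.137). The 2 genes overlap on opposite strands of chromosome 11, FADS2 at chr11:61792980-61867354 on the plus strand and FADS1 at chr11:61799625-61829318 on the minus strand (GENCODE 29, GRCh38). Their annotated exons share 490 bases, 4.44% of those of FADS2 and 4.79% of those of FADS1, and since the use of strand in counting is not given in the sources used here, reads from that stretch cannot be told apart.

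ELOVL6, which lengthens palmitic acid to stearic acid, rose with both hairpins. It was at 6.49, 6.15 and 6.34 CPM in the control libraries, at 9.84, 8.91 and 9.82 CPM with shLMO2-1 and at 11.2, 10.4 and 11.0 CPM with shLMO2-2. All 6 hairpin libraries lay above the 3 controls. The change was 1.505-fold with shLMO2-1 (log2 0.59, SE 0.11, adjusted p = 0.0113, edgeR) and 1.71-fold with shLMO2-2 (log2 0.77, SE 0.11, adjusted p = 0.00269). At an adjusted p under 0.05 it was called in all 18 alternatives for each hairpin. The change with shLMO2-1 does not reach the stricter threshold of 0.01. The difference between the hairpins was 0.19 with a 95% interval of -0.06 to 0.43, with an adjusted p of 0.639.

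**Figure D3:**
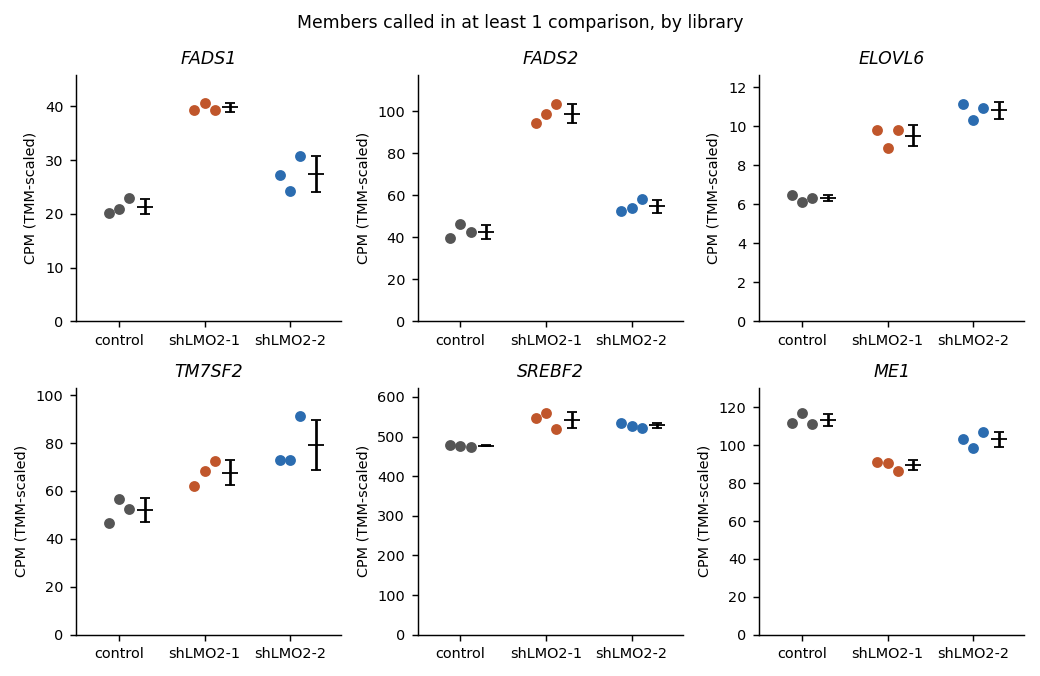
CPM in each library (points, replicates 1 to 3 from left to right) with mean and SD (black bars, n = 3) for the 6 members called in at least 1 comparison; every axis starts at 0. FADS1 and FADS2 are highest with shLMO2-1 and intermediate with shLMO2-2, ELOVL6 and TM7SF2 are highest with shLMO2-2, and ME1 is lowest with shLMO2-1.

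ME1, a cytosolic malic enzyme that supplies NADPH for fatty acid synthesis, was the only member called lower at the settings used throughout. Its level was 112, 117 and 111 CPM in the control libraries, 91.3, 90.6 and 86.3 CPM with shLMO2-1 and 103, 98.7 and 107 CPM with shLMO2-2. The hairpin libraries all lay below the controls. The fall passed the test with shLMO2-1 (log2 -0.34, SE 0.06, adjusted p = 0.00728, edgeR, called in all 18 alternatives) and in the mean of both hairpins (-0.24, adjusted p = 0.0139). With shLMO2-2 the log2 fold change was -0.14 (adjusted p = 0.184), and shLMO2-2 minus shLMO2-1 was 0.20 (adjusted p = 0.204, not called).

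The enzymes that build and first desaturate long-chain fatty acids were not called by edgeR. SCD was at 1695, 1760 and 1743 CPM in the control libraries, at 1914, 1917 and 1855 CPM with shLMO2-1 and at 1832, 1849 and 1879 CPM with shLMO2-2. Both hairpin groups lay above all controls, yet the log2 fold changes were only 0.13 (adjusted p = 0.0824, edgeR) and 0.10. DESeq2 called SCD with shLMO2-1 (adjusted p = 0.0322) and in the mean of both hairpins (0.0258). FASN, the fatty acid synthase, was at 925, 955 and 973 CPM in controls, 1011, 1043 and 1018 CPM with shLMO2-1 and 1001, 1028 and 1087 CPM with shLMO2-2. Its hairpin libraries also lay above all controls, with log2 fold changes of 0.11 and 0.13. ACACA, the acetyl-CoA carboxylase that makes malonyl-CoA, had a log2 fold change of -0.20 with shLMO2-1 and -0.16 with shLMO2-2. ACLY, which makes cytosolic acetyl-CoA from citrate, lay between 711 and 754 CPM over all 9 libraries, and the acyl-CoA synthetases ACSL1 and ACSL3 lay between 261 and 281 CPM and between 122 and 153 CPM. With edgeR none of these 6 genes was called in any comparison. Summed over the 10 fatty acid genes, expression was 4085 ± 53.5 CPM in control, 4384 ± 47.7 CPM with shLMO2-1 and 4284 ± 103 CPM with shLMO2-2 (SD, n = 3).

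None of the 7 mevalonate and isoprenoid enzymes was called in any of the 4 comparisons, and limma-voom and DESeq2 called none either. At an unadjusted p under 0.05, 1 was lower with shLMO2-1 (IDI1) and 1 higher with shLMO2-2 (MVD), named after their values were seen. Their log2 fold changes ran from -0.14 to 0.24 with shLMO2-1 and from -0.13 to 0.19 with shLMO2-2, and the median of the group was 0.04 and 0.10. HMGCS1, which makes HMG-CoA, had the widest spread among them, with 450, 329 and 329 CPM in controls, 497, 415 and 400 CPM with shLMO2-1 and 472, 411 and 379 CPM with shLMO2-2. Replicate 1 was the highest of each group and the groups overlapped. Its log2 fold change was 0.24 with shLMO2-1 (95% interval -0.04 to 0.53) and 0.19 with shLMO2-2 (-0.10 to 0.48). Without control replicate 1 the change with shLMO2-1 was 0.40 and passed (adjusted p = 0.0342), as it did in the mean of both hairpins (0.38, adjusted p = 0.0274). With no filter on low counts HMGCS1 was also called with shLMO2-1 (adjusted p = 0.0432) and in the mean of both (0.0274). A replicate block in edgeR called it with shLMO2-1 (adjusted p = 0.0133), with shLMO2-2 (0.0368) and in the mean (0.00891), and called IDI1 lower in the mean (0.0479). The thiolase ACAT2 lay between 429 and 502 CPM over the 9 libraries, the kinase MVK between 69.4 and 93.9, PMVK between 42.2 and 54.0, the decarboxylase MVD between 473 and 619, the isomerase IDI1 between 371 and 442, and FDPS between 1412 and 1833 CPM. With the use of strand not given, genes on the other strand leave some of these counts uncertain. ACAT2 shares 33.9% of its exonic bases with SOD2-OT1 and 26.5% with SOD2, FDPS 18.6% with RUSC1-AS1, HMGCS1 14.95% with AC114947.2 and IDI1 14.8% with IDI2-AS1. The summed level of the 7 was 3550 ± 175 CPM in control, 3467 ± 97.2 with shLMO2-1 and 3664 ± 164 with shLMO2-2 (SD, n = 3).

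Among the 11 enzymes from squalene on, TM7SF2 was the only one called at the settings used throughout. TM7SF2, a sterol C14 reductase that acts after CYP51A1, was at 46.8, 56.7 and 52.4 CPM in the control libraries, at 62.2, 68.2 and 72.6 CPM with shLMO2-1 and at 73.1, 73.1 and 91.4 CPM with shLMO2-2. All hairpin libraries lay above the controls. The rise was 1.52-fold with shLMO2-2 (log2 0.61, SE 0.11, adjusted p = 0.00671, edgeR, called in all 18 alternatives). With shLMO2-1 the log2 fold change was 0.38 (adjusted p = 0.0524), just short of the threshold, and 6 of 18 alternatives called it, DESeq2 (adjusted p = 0.017) and the omission of shLMO2-2 replicate 3 (0.032) among them. In shLMO2-2 against shLMO2-1, the difference was 0.23 with a 95% interval of -0.0044 to 0.46 (adjusted p = 0.49).

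The other 10 sterol enzymes were not called, although most estimates were above 0. In the mean of both hairpins, 10 of the 11 enzymes had a positive log2 fold change with a median of 0.13, against 7283 of 14709 genes tested. MSMO1, the C4 methyl oxidase, was at 252, 241 and 223 CPM in controls, 311, 246 and 276 CPM with shLMO2-1 and 314, 264 and 260 CPM with shLMO2-2 (log2 0.22 and 0.23). Control and hairpin libraries overlapped for shLMO2-1 and did not for shLMO2-2, and with no filter on low counts MSMO1 was called in the mean of both hairpins (adjusted p = 0.0205). A replicate block in edgeR called it with shLMO2-1 (adjusted p = 0.0412), with shLMO2-2 (0.0329) and in the mean (0.0164). SQLE, the squalene epoxidase, was at 177, 141 and 135 CPM in controls, 188, 165 and 154 CPM with shLMO2-1 and 179, 156 and 151 CPM with shLMO2-2 (log2 0.17 and 0.10), with overlap in both. DHCR7 lay at 905 to 1139 CPM in controls and at 1069 to 1222 CPM in hairpin libraries, and the squalene synthase FDFT1 at 544 to 676 and 649 to 739 CPM. In the mean of both hairpins DHCR7 was called without control replicate 2 (log2 0.26, adjusted p = 0.039) and with no filter (0.0494). Over all 9 libraries, LSS, which closes squalene epoxide into lanosterol, lay between 444 and 498 CPM, CYP51A1, the lanosterol demethylase, between 219 and 239, NSDHL between 187 and 253, HSD17B7 between 48.3 and 63.0, the isomerase EBP between 264 and 379 and SC5D between 334 and 388 CPM. CYP51A1 shares 79.4% of its exonic bases with the annotated gene AC000120.2 on the same strand, which leaves its counts uncertain. The 11 genes summed to 3696 ± 248 CPM in control, 4013 ± 137 CPM with shLMO2-1 and 4081 ± 179 CPM with shLMO2-2 (SD, n = 3).

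**Figure D4:**
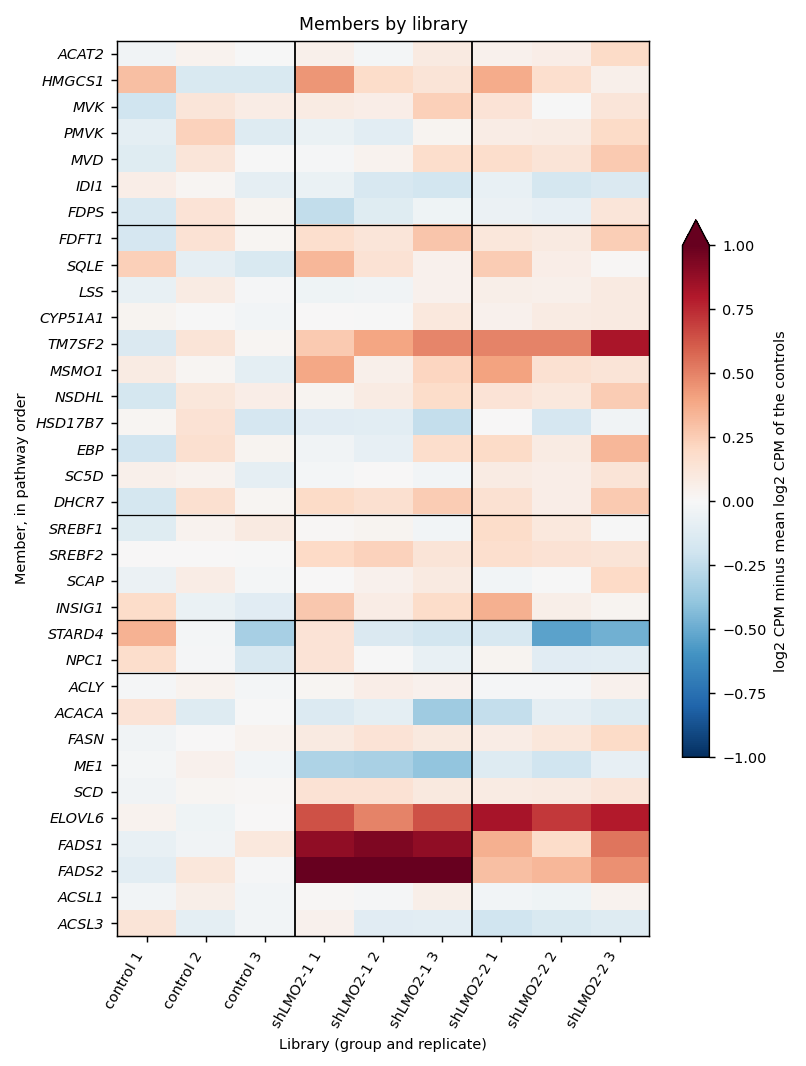
Log2 CPM of 34 members in each library minus the mean log2 CPM of the 3 controls, in pathway order, with the colour scale ending at 1 (FADS2 with shLMO2-1 lies beyond it) and ABCA1 left out for its low counts. The darkest cells above the controls are in FADS1, FADS2, ELOVL6 and TM7SF2, and the darkest below them in STARD4 with shLMO2-2. The mevalonate rows stay paler, with HMGCS1 the strongest of them, above the control mean in control replicate 1 and in every hairpin library.

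Of the 4 regulators, SREBF2, whose product mainly drives sterol genes, was the only one called. It was at 478, 477 and 475 CPM in the control libraries, at 547, 559 and 520 CPM with shLMO2-1 and at 535, 527 and 522 CPM with shLMO2-2. All hairpin libraries lay above the closely spaced controls, an order shared by 8.12% of all tested genes. The rise of 1.14-fold with shLMO2-1 (log2 0.19, SE 0.05, adjusted p = 0.0396, edgeR) was called, and that of 1.11-fold with shLMO2-2 (log2 0.15, adjusted p = 0.0848) was not, although DESeq2 called it (adjusted p = 0.0294). The call with shLMO2-1 was lost in 12 of 18 alternatives (adjusted p 0.00345 to 0.155 over them), among them leaving out any library other than control replicate 1. The call in the mean of both hairpins (log2 0.17, adjusted p = 0.0276) was lost in 9 of 17, among them leaving out any library other than control replicate 1 and shLMO2-1 replicate 3.

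SREBF1, whose product mainly drives fatty acid genes, was at 110, 122 and 127 CPM in controls, 120, 121 and 117 CPM with shLMO2-1 and 136, 128 and 119 CPM with shLMO2-2. The groups overlapped, and the log2 fold change in the mean of both hairpins was 0.05 with a 95% interval of -0.09 to 0.19. SCAP, the sterol-sensing escort, was at 78.6, 85.9 and 80.7 CPM in controls, 81.8, 84.3 and 86.8 CPM with shLMO2-1 and 80.1, 81.6 and 94.0 CPM with shLMO2-2 (log2 0.04 and 0.06). INSIG1, the retention protein and itself a known SREBP target, was at 190, 160 and 155 CPM in controls, 202, 176 and 190 CPM with shLMO2-1 and 214, 175 and 171 CPM with shLMO2-2 (log2 0.17 and 0.15). Both overlapped between groups and neither passed in any comparison. These are RNA levels, and the cleavage of the SREBP proteins was not measured.

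None of the 3 sterol transport genes was called, and limma-voom and DESeq2 called none either. At an unadjusted p under 0.05, 1 of them was lower with shLMO2-2 (STARD4), and edgeR called it there when no filter on low counts was applied (adjusted p = 0.00974). With a replicate block edgeR called STARD4 with shLMO2-2 (adjusted p = 0.0105) and in the mean of both hairpins (0.046). STARD4, a cytosolic sterol carrier, was at 52.3, 40.5 and 32.6 CPM in controls, 45.1, 37.2 and 36.1 CPM with shLMO2-1 and 36.6, 28.3 and 29.4 CPM with shLMO2-2. It had the lowest estimate of all members with shLMO2-2 (log2 -0.41, 95% interval -0.77 to -0.05), the groups overlapped, and the change with shLMO2-1 was -0.08, or 0.10 without control replicate 1. NPC1, which exports cholesterol from lysosomes, lay between 54.9 and 69.5 CPM over the 9 libraries. ABCA1 had log2 fold changes of 0.67 (95% interval -0.34 to 1.68) and 0.66 (-0.32 to 1.64), so a change of this size was not detectable at its depth. Leaving ABCA1 aside, the 95% interval lay within 0.5 log2 units of 0 for 27 of the 29 uncalled members with shLMO2-1 and for 29 of the 30 with shLMO2-2.

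A further 34 genes of these pathways, outside the 35, were set beside them, and all were tested. With shLMO2-1, 5 of them rose and 1 fell, with shLMO2-2 3 rose and 1 fell, and in the mean of both hairpins 7 rose and 2 fell, against 8.42%, 8.97% and 12.4% of all genes tested called in either direction. The shares called in this set were 17.6%, 11.8% and 26.5%. Between the hairpins none passed with any of the 3 tools (1 higher and 2 lower at an unadjusted p under 0.05). ERG28, a scaffold of sterol C4 demethylation, rose with each hairpin (log2 0.22 and 0.25), as did SCARB1, a receptor for high-density lipoprotein (0.41 and 0.42). ELOVL5, an elongase of polyunsaturated acids that works between FADS2 and FADS1, fell with each (-0.23 and -0.25). ABCG1, a sterol exporter, rose with shLMO2-1 (0.81), as did MBTPS2, the protease that makes the second cut in SREBPs (0.46), and ACSS2, the cytosolic acetyl-CoA synthetase (0.35). NPC2, the lysosomal partner of NPC1, rose with shLMO2-2 (0.31). In the mean of both hairpins STARD3 (0.29) and MID1IP1 (0.27) rose and GGPS1 (-0.24), which makes geranylgeranyl diphosphate, fell. Each of these 10 genes lost at least 1 of its calls when some single library was left out, and the only call among them kept in every alternative was that of ELOVL5 in the mean of both hairpins. Without control replicate 1, GGPS1, MBTPS2, ABCG1, MID1IP1 and STARD3 were no longer called in the mean of both hairpins, where 10.6% of all genes were called. ERG28, MBTPS2, ABCG1 and SCARB1 were then not called with shLMO2-1, nor NPC2 with shLMO2-2. The 34 genes were not recounted as a set without that library.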

How the data were processed

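Estimated counts per gene, deposited by the authors in 1 table of 56809 symbols, were used for 9 libraries of 3 groups, placed by the plasmid and title in their labels. Polyadenylated RNA was selected before library preparation, per the labels' protocols. The submitters' processing notes name Salmon 0.12, DESeq2 1.22.2 and GRCh38.p12 without giving their roles, and the annotation and use of strand are not given in the sources used here. Counts were rounded and tested with edgeR 4.0.16 in R 4.3.3 (TMM, filterByExpr with minimum count 10 and minimum total 15, all 9 libraries in 1 quasi-likelihood fit, F-test). LMO2 failed the filter and was added back, which gave 14709 genes tested. Adjusted p-values are Benjamini-Hochberg over these genes, called under 0.05, and standard errors derive from the F statistic. With 3 libraries against 3, an exact permutation test cannot go below 0.1.

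The fit was checked on simulated counts. CPM uses TMM-scaled totals. Coordinates and lengths come from GENCODE 29 by symbol, and CPM per kb uses the longest coding transcript. Every member called in any comparison was named with all its values, along with SREBF1, SREBF2, SCAP, INSIG1, FASN, SCD and LMO2. The other genes described in full were chosen after their values were seen. The members and lists were chosen with earlier results of these data known. The scaling was varied (median of ratios, upper quartile, plain totals), as was the filter (none, or 10 counts in all libraries). The test was exchanged for limma-voom (limma 3.58.1) or DESeq2 1.42.0, run on the compared groups alone, given a block for the replicate number, or held to an adjusted p under 0.01, and every library was omitted once. The 18 alternatives counted for single genes (17 in the mean of both hairpins) leave out the threshold of 0.01. Chi-square per gene between replicates lay between 5.18 and 29.5 (11937 genes), beyond counting noise, so each library was kept as 1 sample.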

Additional observations from a re-analysis of the deposited data

Results flagged for a closer look

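FADS1 and FADS2 responded differently to the hairpins, by a test of the difference itself. The log2 fold change of shLMO2-2 minus shLMO2-1 was -0.54 for FADS1 (adjusted p = 0.0334, edgeR quasi-likelihood test) and -0.85 for FADS2 (adjusted p = 0.00039). Means were 39.8 ± 0.787 CPM with shLMO2-1 and 27.4 ± 3.3 CPM with shLMO2-2 for FADS1, and 98.8 ± 4.63 and 54.9 ± 3.11 CPM for FADS2 (SD, n = 3). All 3 shLMO2-1 libraries lay above all 3 shLMO2-2 libraries for both genes, an order shared by 9.12% of all tested genes. FADS2 kept its call in every alternative. FADS1 lost it in edgeR when shLMO2-1 replicate 1, 2 or 3 was left out (adjusted p = 0.126, 0.167 and 0.0825). The same held for shLMO2-2 replicates 1 (0.119) and 2 (0.137) and control replicate 3 (0.052). LMO2, which both hairpins are named for, had 1 to 6 counts in each of these 6 libraries, and its part in the difference was not tested.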

How the results depend on the processing

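With a replicate block, 8 members were called with shLMO2-1, 7 with shLMO2-2 and 10 in the mean of both hairpins, and 2 between the hairpins. The block also raised the shares of all genes called in these comparisons, from 8.42%, 8.97%, 12.4% and 0.768% to 15.1%, 16.2%, 20.6% and 1.75%. It added HMGCS1 and MSMO1 in the first 3 of these comparisons, TM7SF2 with shLMO2-1, STARD4 with shLMO2-2 and in the mean, and IDI1 in the mean, and SREBF2 was called with shLMO2-1 and in the mean. The labels do not say that a number marks a shared day or culture. Deviations of same-numbered libraries correlated at -0.063 to 0.296. They were above 0.1 for all 6 pairs of replicates 1 and 3 and for none of the 3 pairs of replicate 2. Deviations within a group sum to 0, and replicate 2 lay between replicates 1 and 3 on the first and second principal components in both hairpin groups. Its pairs therefore cannot decide whether the numbers pair the libraries. The fit used throughout has no block and takes no account of any structure by number. Of pairs with different numbers, 2 of 18 were above 0.1, and 5 of 9 libraries correlated best with their own number in both other groups. At an adjusted p under 0.01, 3 members were called with shLMO2-1, 2 with shLMO2-2 and 1 between the hairpins. The shares of all genes called at that threshold were 2.4%, 2.65% and 0.313%. Leaving out single libraries gave 4 to 6 calls with shLMO2-1, 2 to 3 with shLMO2-2, 5 to 7 in the mean of both and 1 to 2 between the hairpins. The shares of all genes called in these fits were 3.63% to 9.33%, 3.3% to 8.26%, 6.31% to 10.6% and 0.253% to 1.6%. Uncalled changes near 0 turned sign when 1 library was left out: STARD4 with shLMO2-1 ranged from -0.23 to 0.10, SCAP with shLMO2-2 from -0.022 to 0.0977 and SREBF1 in the mean of both hairpins from -0.0185 to 0.0914. The cause was not tested. The fit to only the groups compared has no separate form for the mean of both hairpins. Depth limits ABCA1, at 4 to 15 counts a library, and LMO2, at 1 to 35.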

Other observations

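The neighbourhood of the FADS genes was looked at after their values were seen. Of 8 coding genes within 100 kb, all tested, TMEM258, a subunit of the oligosaccharyltransferase, was the only one called, in the mean of both hairpins (log2 0.39, SE 0.10, adjusted p = 0.0338, edgeR), where 12.4% of all genes were called. Its mean was 44.6 CPM in control, 59.6 with shLMO2-1 and 57.4 with shLMO2-2. FADS3, the third desaturase gene of the cluster, had means of 21.2, 25.6 and 20.9 CPM and was not called, and FEN1, whose exons touch those of FADS2, had means of 175, 163 and 175 CPM. MYRF (1.13, 2.06 and 1.08 CPM) and DAGLA (4.50, 6.22 and 4.53 CPM) were highest with shLMO2-1 and were not called either.

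Among the members, 8 of 35 (22.9%) were highest in replicate 1 in all 3 groups, against 13.3% of all tested genes: HMGCS1, IDI1, SQLE, MSMO1, INSIG1, STARD4, NPC1 and ELOVL6. TM7SF2, SCAP, FASN and FADS2 were lowest in replicate 1 in all 3 groups, or 11.4% against 13.1%. What the replicate numbers stand for is not given in the labels.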
